A study of Mus musculus with 2 samples.

Results

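A population of luminal prostate cells marked by Mt4 and Gulo was examined in single-cell RNA profiles of mouse prostate lesions. Luminal cells of barcode set 2, 1 of the 2 barcode sets in the data, were first gated as cells with Epcam and Krt8 above 0, Krt5 under 1 on the natural log scale and Ptprc at 0, which kept 7701 of 9410 cells. Each gated cell was given a score, the mean natural log value of Mt4, Gulo, Npl and Nkain4, and the 15% of gated cells with the highest score were taken as the Mt4/Gulo-high cells. This gave 1156 cells, against 6545 remaining gated cells of the same set and 15742 cells in the series. The members were therefore chosen on the measured values of these 4 genes, and all comparisons within the gate describe a selection on expression and carry no test.

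The tissue came from R26 mTmG/hAR:Osr1 Cre/+ mice on a mixed C57BL/6 and 129S1/SvImJ background. These mice carry a human androgen receptor transgene (hARtg) in the Rosa26 locus behind a floxed stop. The Osr1-Cre driver switches on both hARtg and a membrane-bound green fluorescent protein (mGFP). In embryos of its reporter mice the study saw mGFP mainly in the urogenital epithelium and the prostatic buds. Both tissues carried all of these alleles, so neither served as a control without the transgene. The labels list 1 library of prostatic intraepithelial neoplasia (PIN; tissue of this genotype was taken at 6 months of age) and 1 of prostatic adenocarcinoma (PCa; at 12 months), each from dissociated tissue on the 10x 3' v2 chemistry. Neither the labels nor the barcodes say which of the 2 barcode endings belongs to which lesion, so no cell was assigned to PIN or PCa. The study states a cell number for each lesion, and these are equal or close to the sizes of the sets, but sets were not assigned from cell numbers. With 1 library per set there were no replicates, and every interval given covers counting error only.

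Luminal cells are the secretory lining of the prostate and are known by keratins 8 and 18, whereas basal cells carry keratins 5 and 14. Metallothioneins are small cysteine-rich proteins that bind zinc and copper. The widely expressed Mt1 and Mt2 are induced by metals through metal response elements and also by glucocorticoids, while Mt3 is best known from brain and Mt4 from stratified squamous epithelium. Gulo encodes gulonolactone oxidase, the last enzyme of vitamin C synthesis, which rodents make mainly in liver. Npl encodes N-acetylneuraminate pyruvate lyase, which splits sialic acid, Nkain4 a membrane protein that interacts with the sodium pump, and Ldhb the lactate dehydrogenase subunit that favours pyruvate formation.

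The gate and the label were checked against markers. Krt8 stood at 8174.5 CPM (UMIs summed over the cells of a group and scaled to a common total) in Mt4/Gulo-high cells and at 8124.3 CPM in remaining cells, and Krt18 at 7528.3 and 7488.2 CPM. Krt14 was at 4.74 CPM, Krt5 at 0.719 CPM and the sum of 14 leukocyte markers at 21.4 CPM in the Mt4/Gulo-high cells, with Ptprc, Cd3d and Nkg7 at 0. Krt18, Krt14 and most of the leukocyte markers were not part of the gate, and their levels were those of luminal cells. The name Mt4, however, covered 78.4% of the members (906 of 1156 cells with a UMI; exact 95% interval 75.9 to 80.7%), whereas Gulo was seen in 98.1%, Nkain4 in 98.6% and Npl in 99.7%.

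The depth was similar on both sides of the choice. Mt4/Gulo-high cells held 27837244 UMIs in all, with a median of 19589.5 UMIs (range 1759 to 79980) and 3908 genes per cell, and remaining cells held 143488077 UMIs with medians of 17039 UMIs and 3592 genes. The median mitochondrial share was 5.32% and 5.23%. A Scrublet doublet score over 0.25 was found in 16 Mt4/Gulo-high cells (1.38%) and in 132 remaining cells (2.02%), and 5 of the members carried a barcode sequence that also occurred in set 1.

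The score had no gap at the limit. It spread without a break from 0, found in 1337 gated cells (17.4%), to 2.76, and the 5 lowest members scored 1.298 to 1.299 while the 5 highest cells outside scored 1.296 to 1.298. The last 50 members and the first 50 cells outside were close in Mt4 (130.3 and 130.0 CPM), Gulo (316.9 and 258.2 CPM), Npl (692.3 and 758.7 CPM) and Nkain4 (270.8 and 260.8 CPM). On this score the members are the upper end of a range. A cut on a sorted score leaves close neighbours on both sides, so whether the members form a separate class cannot be read from it.

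**Figure D1:**
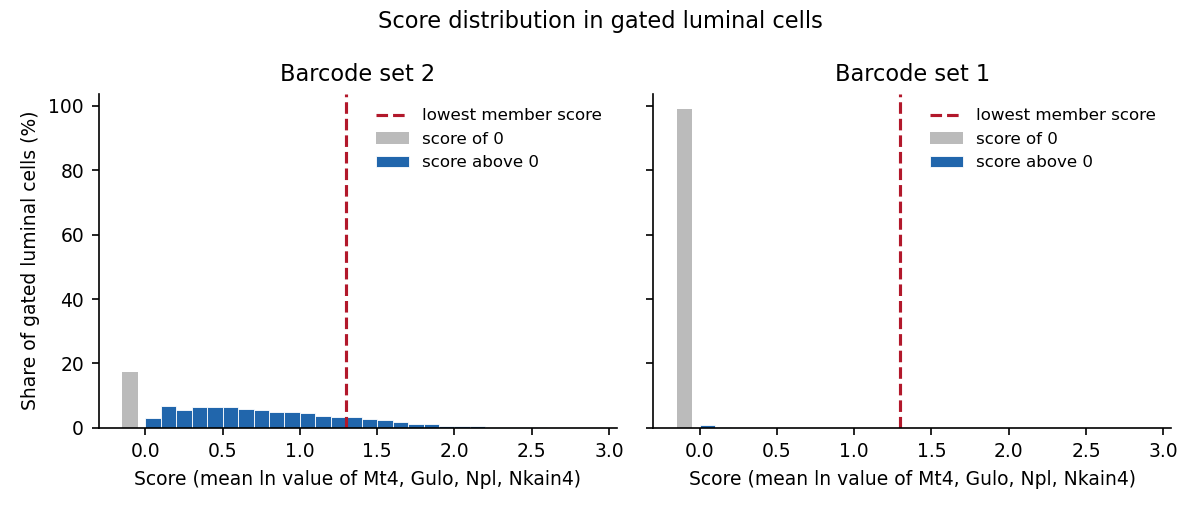
Share of gated luminal cells (y axis, %) by score, the mean natural log value of Mt4, Gulo, Npl and Nkain4 (x axis, bins of 0.1; cells with a score of 0 in a grey bar), in barcode set 2 (left) and set 1 (right), with the lowest member score as a dashed line. Scores in set 2 run on through the limit without a gap, and in set 1 98.9% of the cells scored 0.

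In barcode set 1 the program was all but missing. Of 3121 gated cells, 3087 (98.9%) had no UMI of any of the 4 genes, and the highest score was 0.292. The lowest member score of set 2 was reached by 0 cells, which allows a share of up to 0.0961%. This is an approximate one-sided 95% limit, taken as 3 over the number of gated cells. Those cells were deeper than the gated cells of set 2, with a median of 27211 UMIs. Gulo had 0 UMIs in set 1, Mt4 had 5 UMIs in 3 cells (0.0531 CPM), Nkain4 8 UMIs and Npl 25 UMIs. Ldhb (12.5 CPM) and Mt3 (3.04 CPM), which the score did not use, were also low there, while Mt1 stood at 1246.5 CPM, between the levels of the 2 groups of set 2. The gated cells of the 2 sets also differed in the transgene. At least 5 UMIs of ARQ, the feature taken as hARtg, were found in 19.7% of those of set 1. In set 2 this share was 94.9% in members and 87.9% in remaining cells. Because 1 library stands behind each set, a difference between lesions cannot be told apart from one between libraries, animals or the make-up of the gated cells.

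Within the gate, the 4 genes of the score differed in how sharply they separated, as values that follow from the choice. A member carried a median of 4 Mt4 UMIs (range 0 to 119) and a remaining cell a median of 0 (range 0 to 52), giving 342.7 CPM (95% interval 335.8 to 349.6) against 26.1 CPM. For Gulo the medians were 8 and 0 UMIs, at 431.5 and 65.9 CPM. Npl stood at 925.9 and 281.1 CPM, with medians of 18 and 3 UMIs, and Nkain4 at 384.3 and 100.3 CPM, with medians of 7 and 1 UMIs. Mt4 thus had the widest ratio, 13.1-fold, and Npl the narrowest, 3.29-fold. All 4 genes were found together in 869 members (75.2%) and in 736 remaining cells (11.2%), and another 283 members held 3 of them.

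Detection was compared with cells that should lack the program. For the 4 genes of the score, the shares in members and remaining cells follow from the choice. This holds after thinning too, since the thinned UMIs are part of those the choice used. The same set held 183 cells with Ptprc and Laptm5 above 0 and Epcam under 1, called leukocytes here (median 7796 UMIs). Krt8 was not limited in this gate, and its highest score, 1.434, lay above the lowest member score of 1.298. Gulo was seen in 3.83%, Nkain4 in 3.83%, Mt4 in 4.37% and Npl in 39.3% of these cells. These are the shares that free RNA, mixed droplets or expression in the leukocytes themselves give at that depth, and which of these gave them was not tested. After thinning to 3000 UMIs per cell, which left out 4 members, 68 remaining cells and 13 of the leukocytes, Mt4 was seen in 48.2% of members, 4.99% of remaining cells and 1.18% of leukocytes. Gulo was then seen in 68.1%, 14.98% and 0.588%, and Npl in 91.1%, 43.1% and 21.8% of these groups. Before thinning the remaining cells had shown Mt4 in 17.4%, Gulo in 42.5% and Npl in 70.0%. A stricter leukocyte gate of 39 cells, with Epcam and Krt8 at 0, had a highest score of 0.464. After the same thinning it kept 35 cells. Mt4, Gulo and Nkain4 were each seen in 0% of these (exact 95% interval up to 10.0%) and Npl in 14.3%.

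Over all 7701 gated cells the Pearson r of natural log values was 0.46 for Mt4 with Gulo, 0.58 for Gulo with Npl and 0.59 for Npl with Nkain4. Among the 1156 members, where the choice on the sum restricts the range, it was -0.10 for Mt4 with Gulo, -0.15 for Mt4 with Npl and 0.17 for Gulo with Nkain4. With Mt3, a gene outside the score, the r of Mt4 among the members was 0.29. All cells come from 1 library and differ in depth, so these r are descriptions.

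Mt4 lies in the metallothionein cluster of chromosome 8 with Mt3, Mt2 and Mt1, in this order within a stretch that runs from chr8:94137204 to 94180327 on the plus strand (GRCm38.p6, the mm10 build; RefSeq). Of these neighbours, Mt3 went with Mt4 and the other two did not. Mt3 was at 1256.9 CPM in members and 358.4 CPM in remaining cells, a 3.51-fold difference (95% interval 3.46 to 3.56), with a median of 21.5 UMIs (range 0 to 319) against 3. Mt1 was at 1155.3 and 1372.0 CPM, with a median of 18 UMIs in both groups, and Mt2 at 375.1 and 392.8 CPM, with medians of 7 and 6 UMIs. The factor Mtf1, which drives metal-induced metallothionein transcription, was at 24.8 and 25.6 CPM.

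The RefSeq windows of 250 bases before the starts of Mt4, Mt3 and Mt2 are shown because these neighbours differed in expression. They are printed 5' to 3' on the plus strand (chr8:94136954-94137203 for Mt4, chr8:94152357-94152606 for Mt3 and chr8:94172368-94172617 for Mt2), with matches to the core of the metal response element, TGCACNC or TGCGCNC on either strand, in capitals.
Mt4: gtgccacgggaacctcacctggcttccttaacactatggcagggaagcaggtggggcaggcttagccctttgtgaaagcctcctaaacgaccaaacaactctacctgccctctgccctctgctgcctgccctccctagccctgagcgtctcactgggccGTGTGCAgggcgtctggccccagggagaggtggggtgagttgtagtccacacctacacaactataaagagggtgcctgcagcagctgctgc
Mt3: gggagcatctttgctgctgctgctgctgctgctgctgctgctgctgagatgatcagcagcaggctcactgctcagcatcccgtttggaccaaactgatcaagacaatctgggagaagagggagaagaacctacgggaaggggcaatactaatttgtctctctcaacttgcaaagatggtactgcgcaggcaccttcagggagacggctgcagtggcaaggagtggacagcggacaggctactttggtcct
Mt2: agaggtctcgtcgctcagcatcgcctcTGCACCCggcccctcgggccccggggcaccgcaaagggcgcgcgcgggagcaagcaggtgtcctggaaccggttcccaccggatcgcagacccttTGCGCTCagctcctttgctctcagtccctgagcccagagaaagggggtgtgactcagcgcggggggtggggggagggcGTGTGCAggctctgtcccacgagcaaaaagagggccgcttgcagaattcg
The window held 1 core in Mt4, 0 in Mt3 and 3 in Mt2. Of 32851 windows of this length in the mouse table, 21.4% held 1 or more cores and 1.26% held 3 or more, so a single core as in Mt4 is common, while the count in Mt2, the gene that did not differ, is not. A match of letters is a description and no evidence of binding. RefSeq windows for Gulo and Nkain4 were not used here.

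Outside the score, few genes were higher in the Mt4/Gulo-high cells and more were lower. Of 8609 genes with at least 5 CPM over all gated cells, 31 were at least 2-fold higher on the log2 scale with 10 CPM added to both sides, which is a background of 0.36%, and 27 of these were not genes of the score. A further 158 genes (1.84%) were at least 2-fold lower. The median log2 ratio over all genes was 0.019, so the ratios are not shifted as a whole. When members were chosen on one random part of each cell's UMIs and levels were taken from the other, 27 of the 31 higher and 145 of the 158 lower genes kept their call.

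The genes that followed the score most closely were Mt3 (Pearson r = 0.75 over the 7701 gated cells), Ldhb (0.68), Aspscr1 (0.63), Glul (0.62), Gsta3 (0.56), Cers4 (0.53), Crym (0.53), Blvrb (0.52), Sh3bgr (0.51) and Clic6 (0.50). Ldhb was at 1114.1 CPM in members and 406.9 CPM in remaining cells, with medians of 21 and 5 UMIs. Glul, glutamine synthetase, was at 3856.4 and 1948.8 CPM, with medians of 68.5 and 25 UMIs. It fell just short of the 2-fold limit (log2 ratio 0.98). Aspscr1, a tether of glucose transporter vesicles, was at 1188.0 and 649.7 CPM, and Blvrb, biliverdin reductase B, at 366.2 and 210.5 CPM. In the 183 leukocytes Ldhb was seen in 26.8% and Mt3 in 14.8% of cells, against 99.7% and 99.5% of members.

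By the log2 ratio with 10 CPM added, the highest gene outside the score was Mgp (1.85), matrix Gla protein, an inhibitor of calcification, with 256.3 against 64.1 CPM, and Mt3 (1.78) came next. Mgp was present in 69.6% of members and 31.7% of remaining cells, so it was not carried by every member. Raet1d, a stress ligand of the NKG2D receptor, had a log2 ratio of 1.69, with 62.6 and 12.4 CPM, and without the added CPM its 5.03-fold ratio was above the 3.996-fold of Mgp. Gsta3, a glutathione S-transferase, stood at 731.8 and 245.6 CPM, and Msrb2, a methionine sulfoxide reductase of mitochondria, at 169.5 and 59.7 CPM. Aldh1a1, which turns retinal into retinoic acid and lies below the 15 highest, was at 174.5 and 76.2 CPM. Cldn10, a claudin of ion-conducting tight junctions, was at 237.1 and 95.2 CPM, and Inpp4b, a phosphoinositide phosphatase, at 41.8 and 11.7 CPM. Lhpp, a histidine phosphatase (72.8 and 23.6 CPM), Sh3bgr (121.3 and 44.5 CPM), Teddm1b (50.3 and 15.6 CPM), Iqub (88.3 and 34.8 CPM) and Gabra4, a GABA receptor subunit (43.5 and 14.9 CPM), were also among the 15 highest, as were Mt3, Ldhb and Sp5. The other 12 genes past 2-fold included Scp2, a sterol carrier of peroxisomes (594.2 and 274.6 CPM), Ces1d, a carboxylesterase (99.6 and 41.4 CPM), Eno3, the muscle enolase (135.6 and 59.6 CPM), and Cxcl10, an interferon-induced chemokine (105.6 and 45.4 CPM), which like Aldh1a1 were picked after their values were seen.

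**Figure D2:**
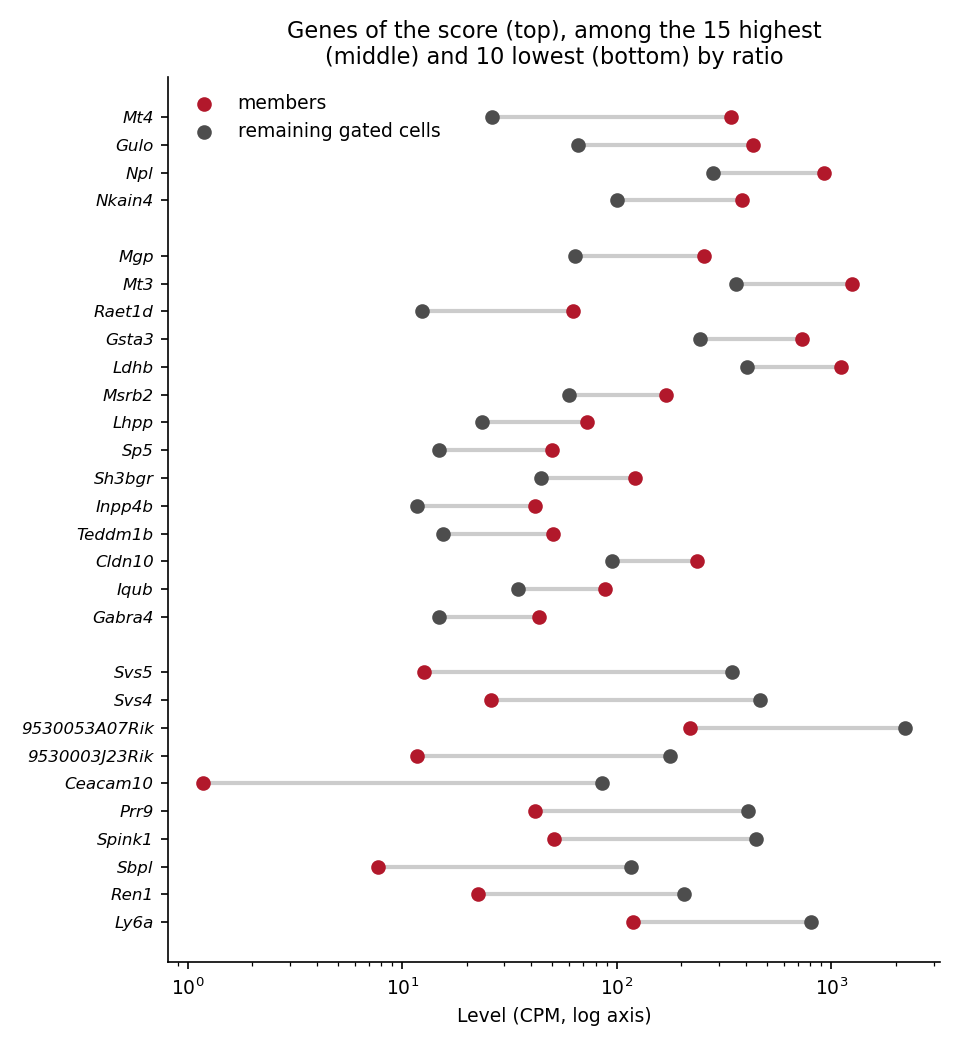
Level in CPM on a log axis (x) of the 4 genes of the score and of genes among the 15 highest and the 10 lowest others by ratio (y), in Mt4/Gulo-high cells (red) and remaining gated cells (grey) of barcode set 2; 1 library, no replicates. Mt4 spans 26.1 to 342.7 CPM, and Svs5 spans 12.6 to 346.7 CPM in the opposite direction.

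Few other genes of the pathways of the 4 genes passed the 2-fold limit. Over all genes tested, 0.36% were higher and 1.84% lower. Of 16 metallothionein and zinc transporter genes that passed the minimum level, 2 were at least 2-fold higher (Mt4 and Mt3) and 0 lower, with a median log2 ratio of 0.11. Slc30a2, a zinc exporter into vesicles, had a log2 ratio of 0.67 and Slc30a4, another zinc exporter, one of -0.73. Of 11 genes of ascorbate and glucuronate handling, 2 were higher (Gulo itself and Crym, which the list also holds) and 0 lower. Crym, a thyroid hormone binding ketimine reductase, was at 1279.4 and 605.3 CPM. Akr1a1, the reductase that makes gulonate, was at 672.4 and 573.9 CPM, whereas Ugdh, at the head of the route, was at 7.87 and 9.90 CPM. Rgn, the lactonase next to last in the route, was at 0.0719 and 0.321 CPM. Of 9 genes of sialic acid metabolism and 7 of the sodium pump and Nkain genes, 1 gene each was higher (Npl and Nkain4) and 0 were lower, with medians of -0.04 and -0.08. The sialic acid synthesis gene Gne stood at 13.0 and 14.2 CPM.

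Among 15 genes of lactate and pyruvate handling Ldhb alone passed 2-fold, with a median of 0.11, against 0.36% higher and 1.84% lower over all genes tested. Ldha, the partner subunit, was at 626.9 CPM in members and 672.1 CPM in remaining cells. Among 16 glycolysis genes 0 passed 2-fold in either direction (median -0.12), and among 20 citrate cycle genes also 0 (median 0.17). Idh2, mitochondrial isocitrate dehydrogenase, had the widest citrate cycle ratio (63.3 and 35.9 CPM). Mpc1, a pyruvate carrier subunit, was at 387.4 and 274.9 CPM.

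Of 23 glutathione and antioxidant genes, 2 were at least 2-fold higher (Gsta3 and Gstm2) and 1 lower (Gpx3, 64.5 and 186.2 CPM), with a median of -0.18. Over all genes tested, 0.36% were higher and 1.84% lower. Gstm2 was at 251.0 and 115.5 CPM, Gstt1 at 92.7 and 45.2 CPM and Gstm1 at 191.9 and 111.6 CPM. Gclm, a subunit of the enzyme that makes glutathione, was at 93.8 and 144.1 CPM and Hmox1, heme oxygenase, at 208.7 and 302.3 CPM.

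Several of the genes named above (Glul, Gulo, Aldh1a1, Gsta3 and Ces1d) are well known from hepatocytes. The 9 liver markers measured had a summed level of 27.55 CPM in members and 13.03 CPM in remaining cells. Only Ass1 among them passed the minimum level (13.0 and 7.41 CPM), and Ttr, Serpina1a, Fgb and Hnf4a were at 0 UMIs in the members. Cyp2e1 was at 12.5 and 2.91 CPM. Alb and 4 other listed liver genes were not analysed here.

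Secretory genes of the seminal vesicle type were lower. Of 10 seminal vesicle secretory genes that passed the minimum, 9 were at least 2-fold lower and 0 higher, against a background of 1.84%, with a median log2 ratio of -2.23. Svs5 was at 12.6 CPM in members and 346.7 CPM in remaining cells, a 27.4-fold difference (95% interval 24.7 to 30.5), and Svs4 at 25.9 and 467.1 CPM. The seminal vesicle secretory proteins coat and clot the ejaculate. Only 15.2% of members and 19.2% of remaining cells held a Svs5 UMI, so the difference lay in cells with many UMIs. With the 1156 cells highest in seminal vesicle genes and the 1156 highest in alpha-defensins taken out of the remaining cells, an alternative added after the data were seen, the log2 ratio of Svs5 turned to 0.42 and the median of the list to 0.49.

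Of 19 androgen-dependent secretory genes of the prostate, 12 were at least 2-fold lower and 0 higher (median -1.13). Of all genes tested, 1.84% were lower and 0.36% higher. Tgm4, the prostate transglutaminase of the copulatory plug, was at 194.2 and 974.2 CPM, Pbsn, probasin, at 151.0 and 389.4 CPM, and Spink1, a trypsin inhibitor, at 51.0 and 447.0 CPM. Sbp, spermine binding protein, remained abundant at 1331.3 against 2743.4 CPM. The beta-defensin Defb50 went the other way over the whole gate, with 2900.9 and 1803.4 CPM, but not within cluster 1 of the gated cells (4157.8 and 5187.7 CPM). The unnamed gene 9530053A07Rik was at 219.1 and 2201.3 CPM and 9530003J23Rik at 11.7 and 177.9 CPM. The other genes among the 10 lowest were Ceacam10 (1.19 and 85.1 CPM), Prr9 (41.9 and 408.3 CPM), Sbpl (7.69 and 116.3 CPM) and Ren1, renin (22.6 and 205.6 CPM). Spink1 was seen in 18.3% of members and 19.95% of remaining cells, Sbpl in 10.9 and 10.5%, Ren1 in 17.8 and 15.8% and 9530053A07Rik in 37.7 and 41.2%. For these genes the difference thus lay in cells with many UMIs. Prr9 (20.4 and 40.0%), 9530003J23Rik (5.28 and 11.4%) and Ceacam10 (2.6 and 5.35%) were seen in a smaller share of members. Set against the remaining cells of those clusters that hold most members (added after the data were seen), the median of this list was 0.20 and the log2 ratio of 9530053A07Rik was 0.09, so the direction of this group depends on which luminal cells stand on the other side. Androgen receptor targets that are not secreted showed 3 of 14 lower (Pmepa1, Sgk1 and Ndrg1) and 0 higher, while Fkbp5 was at 46.7 and 53.2 CPM.

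Markers of the proximal ducts and of progenitor-like luminal cells were lower as well, in 7 of 11 genes (median -1.72). The share over all genes tested, 1.84%, is the background for this and the next counts of lower genes. Ly6a, the surface antigen Sca-1, was at 119.3 and 805.0 CPM, Clu, clusterin, at 287.7 and 1302.4 CPM, Psca, prostate stem cell antigen, at 38.4 and 162.8 CPM, and Krt7 at 11.1 and 61.6 CPM. Of 13 luminal lineage genes, 3 were lower: Krt19 (172.3 and 879.0 CPM), Epcam, which the gate itself used (246.2 and 573.5 CPM), and Cd24a (706.0 and 1422.8 CPM). Krt8, Krt18, Foxa1, Hoxb13, Cldn3 and Dpp4 had log2 ratios between -0.02 and 0.19. Of 6 basal genes 4 were lower, among them Krt14 at 4.74 and 43.5 CPM, while Itga6, an integrin, was at 220.0 and 182.9 CPM. Of 6 squamous genes 4 were lower, with Sprr1a, a cornified envelope precursor that the proximal list also holds, at 212.1 and 544.1 CPM and Lor, loricrin, at 16.8 and 52.0 CPM. In the clusters that hold most members the medians were -0.39 for the proximal list, -0.13 for the basal and -0.48 for the squamous list.

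Markers of other cell types stood beside these lower genes. The summed level was 21.4 CPM in members and 62.2 CPM in remaining cells for the 14 leukocyte markers, 45.5 and 74.8 CPM for 8 endothelial, 268.0 and 424.8 CPM for 10 fibroblast and 10.4 and 17.6 CPM for 8 smooth muscle markers. Cd74, carried by antigen-presenting cells, was at 5.75 and 25.4 CPM, and Gsn, gelsolin, at 62.7 and 148.0 CPM. Dcn, which made up most of the fibroblast sum in members, was at 192.9 and 245.2 CPM. It was seen in 69.6% of members and 61.05% of remaining cells, so fewer members with stromal RNA cannot be read from the sum. The summed level of 13 major histocompatibility class I genes was 3239.8 and 5021.3 CPM, and B2m, their light chain, stood at 1443.3 and 3334.0 CPM. The part of admixed cells in the lower genes was not tested.

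**Figure D3:**
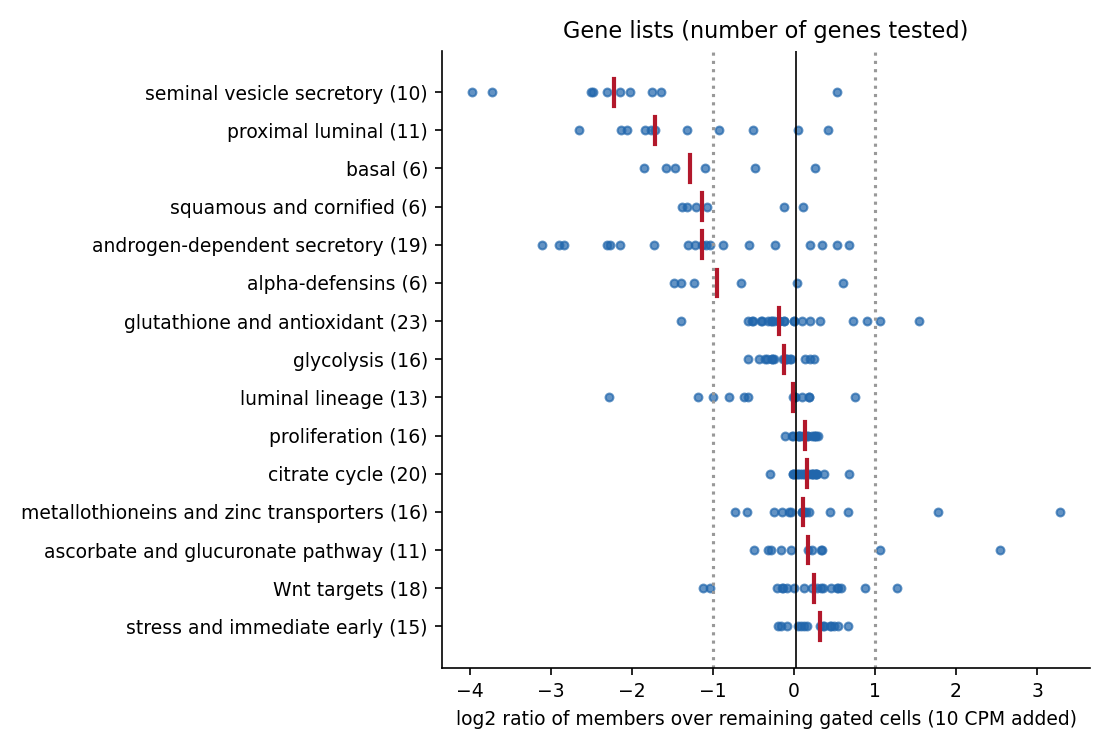
Log2 ratio of Mt4/Gulo-high over remaining gated cells (x axis, 10 CPM added) for each gene (dots) of 15 gene lists (y axis, number of genes at 5 CPM or more in brackets), with list medians as red bars, the median of all genes as a black line and the 2-fold limits as dotted lines. Lists of secretory, proximal, basal and squamous genes lie to the left, with medians from -2.23 to -1.13, and metabolic and proliferation lists lie near 0.

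The transgenes were close in both groups. The feature ARQ, taken as hARtg from its name, was at 1542.1 CPM in members and 1463.3 CPM in remaining cells, a ratio of 1.05, with medians of 29 and 23 UMIs. The feature EGFP, taken as mGFP, was at 10105.1 and 9847.1 CPM, a ratio of 1.03. At least 1 ARQ UMI was found in 99.5% of members and 96.2% of remaining cells, against 34.4% of the 183 leukocytes. The driver gene Osr1 was all but silent in both groups (0.251 and 0.376 CPM). In barcode set 1 the gated cells had 170.5 CPM of ARQ, and 44.6% of them held a UMI.

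Targets of Wnt/beta-catenin signalling, a pathway the study addressed in these tumours, mostly stayed within 2-fold. Of 18 target genes that passed the minimum, 1 was at least 2-fold higher (Sp5) and 2 lower (Bambi and Cd44), with a median log2 ratio of 0.25. Over all genes tested, 0.36% were higher and 1.84% lower, which is also the background for the IGF genes below. Sp5, a direct target and a zinc finger factor, was at 50.04 and 14.9 CPM (3.37-fold) and was seen in 39.8% and 16.99% of cells. Notum, a secreted Wnt inhibitor, was at 139.7 and 71.9 CPM, Axin2, a feedback inhibitor, at 241.2 and 163.8 CPM, Nkd1 at 334.7 and 225.6 CPM, and the receptor Lgr5 at 41.8 and 24.6 CPM. Ccnd1 (224.1 and 261.7 CPM) and Sox9 (164.7 and 175.0 CPM) were not higher. In the gated cells of barcode set 1, Axin2 stood at 21.3 CPM, Notum at 1.20 CPM and Lgr5 at 0.797 CPM, below both groups of set 2. Of 11 genes of the IGF axis, 2 were lower (Igfbp7, 19.0 and 94.5 CPM, and Igfbp3, 2.62 and 23.1 CPM) and 0 higher, and Igf1r was at 72.2 and 93.6 CPM. Igfbp3 was seen in 3.55% of members and 4.31% of remaining cells, and both Igfbp genes lead 1 of 14 clusters of the gated cells (cluster 11, 61 cells, 2 of them members) together with the endothelial genes Gpihbp1, Plvap and Esm1. Plvap was at 1.22 and 9.46 CPM. The part of endothelial RNA in these lower values was not tested.

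No gene of the proliferation or stress lists passed 2-fold, against 0.36% higher and 1.84% lower over all genes tested. Of 16 proliferation genes 0 passed 2-fold (median 0.13), with Mki67 at 17.9 and 15.3 CPM. Of 15 stress and immediate early genes 0 passed (median 0.33), with Egr1 at 1264.4 and 864.8 CPM and Ier2 at 997.6 and 624.8 CPM. The polyamine list had 0 of 11 genes past 2-fold (median -0.17), the mitochondrially encoded list 0 of 12 (median 0.03), the class I list 1 of 9 lower (median -0.05) and the urothelial list 1 of 4 lower (Upk1b). Ionocyte and tuft cell markers did not reach the minimum level, and of the neuroendocrine list 1 gene, Ddc, did (21.5 and 16.5 CPM).

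The 7701 gated cells were also divided into 10 bins of equal size by score, of which bin 10 is the highest. All of bin 1 and part of bin 2 score 0, so the cut between these bins divides tied cells arbitrarily and no order is read from it. From bin 1 to bin 10, Mt3 went from 40.9 to 1393.1 CPM and was higher at every step from bin 2 on, Ldhb went from 128.4 to 1234.3 CPM and Glul from 562.6 to 4048.5 CPM. Sp5 went from 3.61 to 58.7 CPM and Notum from 15.1 to 149.2 CPM. Axin2 differed mainly among the low bins, at 45.6 CPM in bin 1, 203.8 CPM in bin 6 and 242.4 CPM in bin 10. Mt2 stayed between 347.9 and 418.6 CPM over all 10 bins. ARQ was lowest in bin 1 (984.2 CPM), highest in bin 6 (1635.4 CPM) and at 1507.8 CPM in bin 10. Tgm4 went from 3478.0 CPM in bin 1 to 536.3 CPM in bin 4 and 185.8 CPM in bin 10. Pbsn was at 1560.9 CPM in bin 1, at 45.3 CPM in bin 6, its lowest, and at 180.3 CPM in bin 10. Mgp was at 95.7 CPM or less up to bin 8 and at 306.7 CPM in bin 10.

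**Figure D4:**
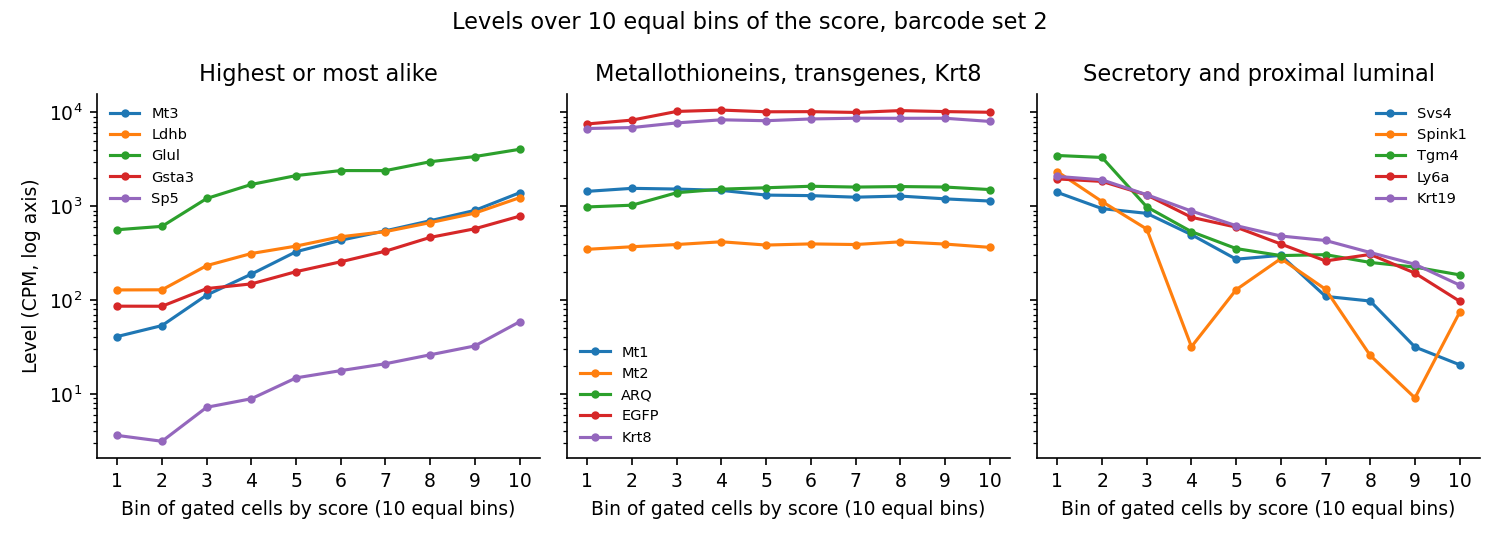
Level in CPM on a log axis (y) of 15 genes over 10 equal bins of the 7701 gated cells of barcode set 2 by score (x, lowest to highest; 1 library, no replicates). Mt3, Ldhb, Glul, Gsta3 and Sp5 are highest in bin 10, Mt1, Mt2, ARQ, EGFP and Krt8 stay within a narrow band, and Svs4, Tgm4, Ly6a and Krt19 are lowest in bin 10, with an uneven course for Spink1.

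The Mt4/Gulo-high cells were not confined to 1 cluster. Gated cells were clustered without the 4 genes of the score and Ldhb, which gave 14 clusters, numbered 0 to 13. Cluster 1 (1278 cells), led by Mt4, Defb50, Cldn10 and Gulo, held 593 members, 51.3% of all, and members made up 46.4% of its cells (exact 95% interval 43.6 to 49.2%). Cluster 3 (1145 cells), led by alpha-defensin genes such as Defa5 and Defa22, held 250 members, cluster 0 (1970 cells), led by Gja1 and Cox4i2, held 163, and cluster 5 (584 cells), led by the cell division genes Ube2c and Birc5, held 85. Cluster 2, led by Svs5 and Svs3a, had 21 members among 1166 cells (1.80%).

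**Figure D5:**
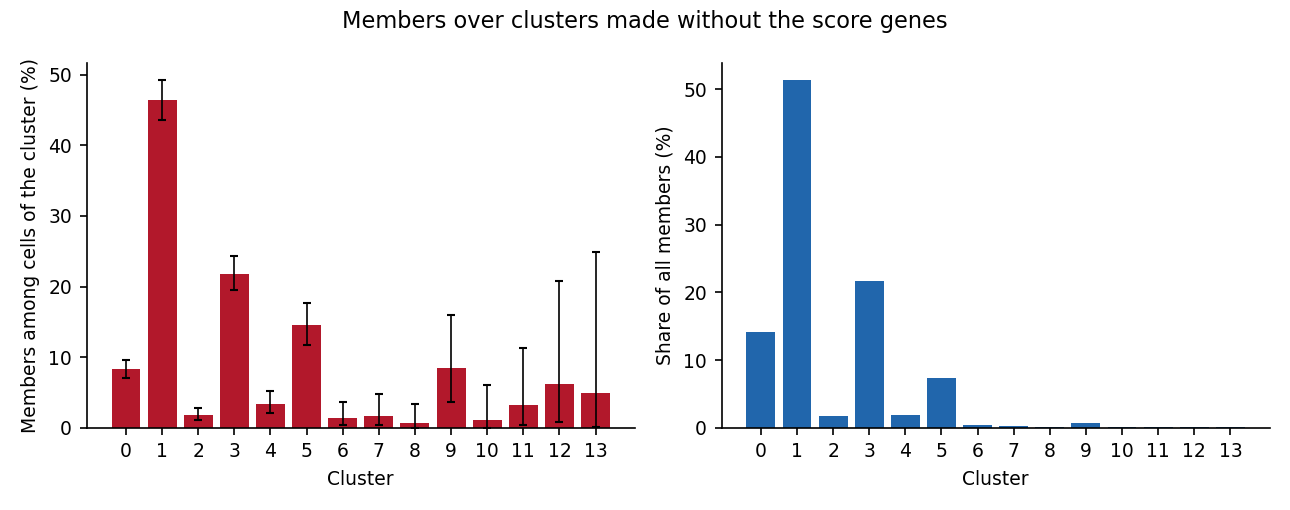
Share of Mt4/Gulo-high cells among the cells of each cluster (left y axis, %, with exact binomial 95% intervals that cover counting error only) and share of all members in each cluster (right y axis, %), by cluster number (x). Clusters 1, 3, 0 and 5 hold 51.3%, 21.6%, 14.1% and 7.35% of the members.

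Members of these clusters shared part of the pattern and differed in the rest. Mt3 was at 1414.6 CPM in members and 790.8 CPM in the other cells of cluster 1, at 1190.1 and 379.6 CPM in cluster 3, at 1264.5 and 411.6 CPM in cluster 5 and at 812.0 and 424.9 CPM in cluster 0, so it was higher in the members of all 4. Ldhb behaved alike, with 1246.1 and 748.4 CPM in cluster 1 and 1164.0 and 518.2 CPM in cluster 3. Mgp reached 336.7 CPM in members of cluster 1 but 94.4 CPM in those of cluster 3, where the other cells had 22.7 CPM. It was also among the leading genes of cluster 9 (95 cells, 8 of them members), with Apod, Bgn and Vim. Sp5 was at 68.6 CPM in members of cluster 1 and 13.1 CPM in those of cluster 3. Glul was highest in cluster 3, at 5354.5 and 3390.9 CPM. Defa20, an alpha-defensin, was at 245.5 CPM in members of cluster 3 and at 928.5 CPM in its other cells, and Krt19 at 143.6 and 500.4 CPM. Defb50 was lower in members than in the other cells of cluster 1, at 4157.8 and 5187.7 CPM. It was higher in members in cluster 0 (218.8 and 120.7 CPM), cluster 3 (2079.1 and 703.5 CPM) and cluster 5 (1532.4 and 848.5 CPM).

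Against the other cells of cluster 1 alone the number of genes at least 2-fold apart shrank to 9 higher and 16 lower. Of the 31 higher genes of the whole gate 7 kept their call there, and Mt3 had a log2 ratio of 0.83, Sp5 one of 1.12 and Mgp one of 1.46. Against the cells of clusters 0, 1, 3 and 5 together, 21 of the 31 higher and 52 of the 158 lower genes kept theirs. Both comparisons were added after the data were seen.

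The overlap with other luminal programs was below or near the 15% that unrelated choices from the gate would share. The 1156 cells highest in alpha-defensins shared 53 cells with the members (4.59% of each), the 1156 highest in seminal vesicle genes 46 (3.98%) and the 1156 highest in proliferation genes 203 (17.6%), where a share of 15% of the gate defines each group. Mt4 stood at 35.9 CPM in the alpha-defensin high cells, 38.6 CPM in the seminal vesicle gene high cells and 100.6 CPM in the proliferation gene high cells, and Glul at 2132.1, 1524.4 and 2364.5 CPM. Of 6 alpha-defensin genes 3 were at least 2-fold lower in the Mt4/Gulo-high cells (Defa20, Defa21 and Defa22), against 1.84% of all genes tested. Defa24 was at 119.2 and 74.7 CPM. The median log2 ratio of this list was -0.95. It was -0.16 within cluster 1, and with the cells highest in alpha-defensins and in seminal vesicle genes taken out of the remaining cells it turned to 0.30.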

How the data were processed

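Cells of 2 libraries, 1 of PIN and 1 of PCa, were profiled on the 10x 3' v2 chemistry. Per the study's methods and the labels, the authors counted UMIs with Cell Ranger 3.1.0 against mm10 with the hARtg and mGFP sequences added, left out empty droplets, multiplets and cells with a high mitochondrial share, and used Seurat 3.2.1. The deposited table holds natural log values, made by the authors as ln(1 + x), with x the UMIs of a gene per 10000 UMIs of its cell; it covers 19320 features (24 names had turned into dates) in 15742 cells. UMIs were recovered from it, and 100% of values were whole within 0.001. The barcodes of 67 cells occurred under both endings.

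UMIs were summed over cells and given as CPM. Ratios are log2 with 10 CPM added, for genes with at least 5 CPM over all gated cells of set 2, and a gene was called at 2-fold. Intervals are exact at 95% (Poisson, Clopper-Pearson, conditional binomial), apart from the approximate limit given for 0 cells in set 1. No p-values were computed, since each set is 1 library. Doublets were scored with Scrublet and cells clustered by Leiden at resolution 0.5 in scanpy 1.11.5 (python 3.11.15). No doublet was removed beyond the authors' own step. A leukocyte gate (Ptprc above 0, Epcam and Krt8 at 0) held 39 cells and was widened to 183 after the data were seen. Named genes were the genes of the score, transgene and gate features, the 15 highest and 10 lowest ratios, the 10 closest correlations with the score, and up to 4 widest ratios or members of a needed role in each of 34 lists. The members and lists were chosen with earlier results of these data known. Some named genes are not reported here. Scripts were tested on simulated counts. The alternatives covered the member share, depth, scaling, doublets, transgene, gate, pseudocount and filter.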

Additional observations from a re-analysis of the deposited data

How the results depend on the processing

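No paired analysis was possible because each barcode set is 1 library and no group has replicates. Over 14 of the alternatives, 1064 values of named genes and list medians were recomputed, and 0 values that passed 2-fold turned in sign, although 1 called gene among the shallow, 1 among the middle and 2 among the deep cells did, while 316 moved beyond their counting interval or by over 0.25 for a list. The 31 higher and 158 lower genes became 19 higher and 123 lower with the score taken from 3000 UMIs per cell. They became 84 higher and 370 lower with a pseudocount of 1 CPM. A small pseudocount by its construction lets low genes pass. The other alternatives set out at the start gave 26 to 46 higher and 137 to 203 lower genes. Of alternatives added after the data were seen, the comparison within the clusters that hold most members gave 65 lower genes, and that within cluster 1 gave 9 higher and 16 lower. On the log2 scale, Ren1 turned to 0.19 within those clusters (0.26 in cluster 1), 9530053A07Rik to 0.094 and the androgen-dependent secretory median to 0.20. Without seminal vesicle gene high and alpha-defensin high cells, Svs5 turned to 0.42, the seminal vesicle median to 0.49 and the alpha-defensin median to 0.30. These last settings take cells high in such genes out of the other side. The same choice in barcode set 1 gave no value, since over 85% of its gated cells score 0.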
